A study of Homo sapiens with 4 samples.

Results

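NOTCH receptors, their nuclear cofactor, a turnover factor and classical target genes were followed in J.gamma1 cells with and without knockdown of the fatty acid elongase gene ELOVL5. The 10 genes were listed by name, for their roles in the pathway and with earlier results of these data known: the receptors NOTCH1, NOTCH2 and NOTCH3, the cofactor RBPJ, the ubiquitin ligase gene FBXW7, and the targets HES1, HES4, DTX1, NRARP and PTCRA. All 10 were found among the 64252 Ensembl genes of the deposited table, and all 10 were among the 17461 genes with enough counts to be tested. Both groups consist of J.gamma1 cells, a clone of the Jurkat human T-cell acute lymphoblastic leukemia line selected for the loss of phospholipase C gamma 1, so the controls carry that defect too. A control hairpin (shNC) was introduced into 2 samples and a hairpin against ELOVL5 (shELOVL5) into the other 2. The column headers of all 4 also carry a tag, D4, that the labels do not explain. The data come from 1 clone and 1 hairpin per group, and no label states that the 2 samples of a group grew as separate cultures. Every p-value therefore rests on the spread between these samples alone, and that spread may be technical.

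NOTCH receptors are surface proteins that are cut when a ligand on a neighbouring cell binds, first by an ADAM protease and then by gamma-secretase. The released intracellular domain enters the nucleus, joins RBPJ and a Mastermind protein on DNA, and switches genes on, and in its absence RBPJ sits with corepressors. In the thymus this signal commits progenitors to the T lineage and drives expression of the pre-T-cell receptor, and activating mutations of NOTCH1 are among the commonest lesions of T-cell leukemia. FBXW7 marks the intracellular domain for degradation, and the parental Jurkat line is known to carry lesions in both NOTCH1 and FBXW7.

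HES1 and HES4 encode repressors of the same basic helix-loop-helix family, and they are shown side by side because they are the textbook type of NOTCH target and because HES4 passed the test in these cells while HES1 did not. The 250 bases before each start site are given 5′ to 3′ on the gene's strand, from RefSeq on GRCh38.p14. Capitals mark the RBPJ core TGGGAA within its longer form GTGGGAA, any further TGGGAA, and the letters TTCACAC, which read GTGTGAA on the opposite strand. HES4 lies on the minus strand, chr1:1000098-1000347, and HES1 on the plus strand, chr3:194135898-194136147.
HES4: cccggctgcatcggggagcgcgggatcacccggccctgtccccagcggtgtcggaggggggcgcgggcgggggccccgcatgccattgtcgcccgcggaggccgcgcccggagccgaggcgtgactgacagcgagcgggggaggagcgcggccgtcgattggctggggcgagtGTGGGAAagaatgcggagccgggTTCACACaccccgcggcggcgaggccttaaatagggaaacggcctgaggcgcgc
HES1: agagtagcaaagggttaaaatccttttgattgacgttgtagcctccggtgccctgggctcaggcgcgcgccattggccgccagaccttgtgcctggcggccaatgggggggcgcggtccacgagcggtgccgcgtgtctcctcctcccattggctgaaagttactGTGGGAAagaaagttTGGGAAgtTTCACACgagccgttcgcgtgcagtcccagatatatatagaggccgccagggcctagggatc

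In both windows GTGGGAA was followed after 16 bases by TTCACAC on the same strand, an arrangement known from HES genes as a paired RBPJ site. It began 77 bases before the start site of HES4 and 85 bases before that of HES1. The 30 bases of the arrangement were identical at 21 positions, and the 16 bases in between at 7. Those 2 stretches are set under each other below, with the outer letters in capitals.
HES4: GTGGGAAagaatgcggagccgggTTCACAC
HES1: GTGGGAAagaaagtttgggaagtTTCACAC

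Of the 35116 RefSeq promoter windows of 300 bases, 250 before and 50 after a start site, these 2 were the only ones that held the arrangement on either strand. The pattern was written down from these same windows, so its rarity is a description. The core TGGGAA alone, searched on both strands, occurred in 24% of all windows. It was present in 3 of the 9 members that had a window: HES4 once, HES1 at 2 places and RBPJ at 2 places in 1 of its 5 windows. DTX1 had no window and was not searched.

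Knockdown was seen in both shELOVL5 libraries. ELOVL5 was at 342 and 353 CPM (counts scaled to a common library size, with TMM for composition) in shNC and at 71.8 and 70.0 CPM in shELOVL5, 4.90-fold lower (adjusted p = 1.79e-09, edgeR's quasi-likelihood test). Total counts lay between 16254002 and 17338719 per library, and 1 count was worth 0.0572 to 0.0623 CPM. The labelled cell type was checked on 14 T lineage markers, all of which had more than 3 counts in every library, with summed levels of 1768 to 1772 CPM in shNC and 1711 to 1717 CPM in shELOVL5. Of these markers 2 were higher and 7 lower in shELOVL5 at an adjusted p under 0.05, next to 9.22% higher and 11.2% lower among all tested genes. Single markers thus changed although the sums were close. The 7 fell by 11.3% (LCK) to 44.4% (CD1A), and CD3E and CD3G rose by 25.0% and 18.6%. Markers of myeloid and erythroid cells summed to at most 1.68 and 0.589 CPM in any library. Epithelial and fibroblast markers summed to 12.6 to 13.9 CPM. Of the 6 listed, EPCAM and COL1A2 had 0 counts in every library. The other 4 had more than 3 counts in every library, KRT8 with 66 to 92 and COL1A1 with 62 to 132. B lineage markers summed to 40.7 and 47.7 CPM in shNC and to 26.9 and 29.8 CPM in shELOVL5, most of it CD79A, which was lower in shELOVL5, and PAX5 and MS4A1 stayed at or under 0.156 CPM on average in either group.

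Knockdown libraries had more HES4, DTX1 and NOTCH2 transcript and less NOTCH1, NOTCH3, RBPJ and FBXW7. HES4 changed most among them, to 1.79 times its control level, and NOTCH2 least, to 1.15 times. In total, 3 of the 10 genes were higher and 4 lower at an adjusted p under 0.05 over all tested genes. Across the whole transcriptome the same rule called 20.4% of tested genes, 9.22% as higher and 11.2% as lower. For 9 of the 10 genes both shELOVL5 libraries lay above, or both lay below, both shNC libraries, against 60.1% of all tested genes. Depth bears on these counts: above a mean level of 20 CPM, a limit chosen after the values were seen, 32.6% of genes were called, against 7.87% under it. All 7 genes that passed lay above 20 CPM and the 3 that did not pass lay under 3 CPM in every library. Of these 3, NRARP was among the 9 without overlap, although shNC replicate 1 and shELOVL5 replicate 1 both had 11 counts. Only the library scaling set those values apart. The median log2 fold change of the 10 genes was -0.0039, next to 0.0062 for all tested genes, so the group as a whole had no common direction. In bulk RNA, fewer cells expressing a gene and less of its RNA per cell cannot be told apart.

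**Figure D1:**
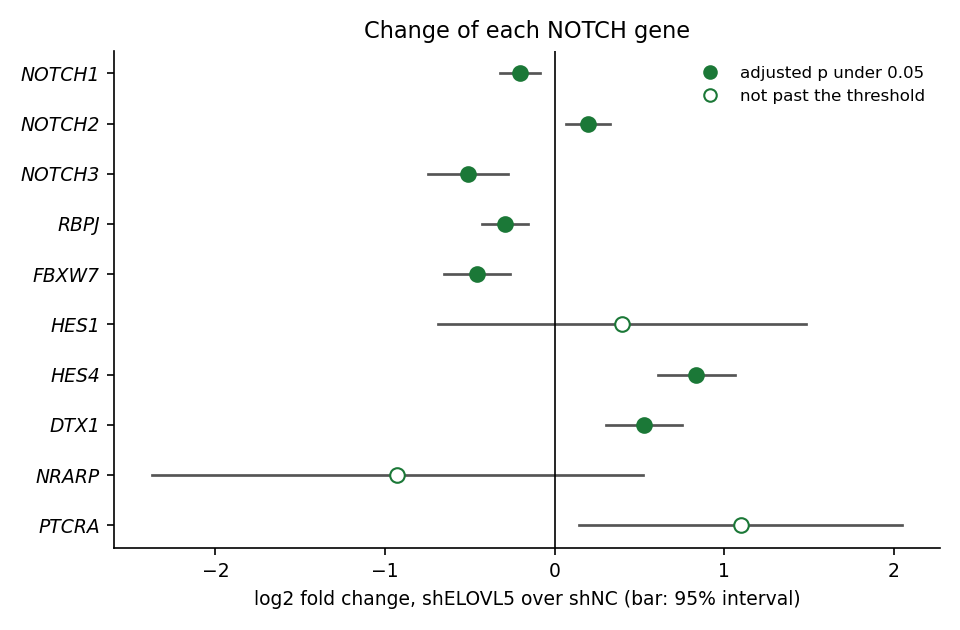
Log2 fold change of each of the 10 genes, shELOVL5 over shNC (x axis), with its 95% interval from the edgeR fit; filled points have an adjusted p under 0.05. HES4 (0.84) and DTX1 (0.53) lie to the right of 0, NOTCH3 (-0.51) and FBXW7 (-0.46) to the left, and the intervals of HES1, NRARP and PTCRA are the widest.

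NOTCH1 (ENSG00000148400; GRCh38 chromosome 9, 136494433 to 136545786, minus strand), the receptor most often mutated in T-cell leukemia, was at 181 and 187 CPM in shNC and at 155 and 165 CPM in shELOVL5. Both knockdown libraries lay under both control libraries. The log2 fold change was -0.20 (SE 0.0524, adjusted p = 0.0199), so the level fell by 13.2%. The call was lost without shELOVL5 replicate 1 (adjusted p = 0.154) or shNC replicate 2 (adjusted p = 0.0708), and without a low-count filter (adjusted p = 0.0664). The long noncoding gene NALT1, which lies 426 bases from NOTCH1 on the other strand, had 15 to 37 counts in each library. The antisense gene AL592301.1 inside NOTCH1 had at most 8 counts.

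NOTCH3 (ENSG00000074181; chromosome 19, 15159038 to 15200981, minus strand) is both a receptor and a target of NOTCH1 in T-cell leukemia. It was at 34.9 and 37.1 CPM in shNC and at 24.5 and 26.0 CPM in shELOVL5, again with every knockdown library under every control library. Its log2 fold change was -0.51 (SE 0.107, adjusted p = 0.00698), so the level fell by 29.9%. Without shELOVL5 replicate 1 the value was -0.48 and did not pass (adjusted p = 0.0671).

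NOTCH2 (ENSG00000134250; chromosome 1, 119911553 to 120069626, minus strand), a receptor best known for its part in B cell development, went the other way. It was at 136 and 141 CPM in shNC and at 166 and 151 CPM in shELOVL5, with no overlap but with 10.4 CPM of spread (SD) between the knockdown libraries. The log2 fold change was 0.20 (SE 0.0585, adjusted p = 0.0380). This was the least stable of the 7 calls: it was kept in 5 of 13 alternative analyses, whose adjusted p ranged from 0.0176 to 0.336, and without shELOVL5 replicate 1 the value was 0.12. NOTCH2NLA, a near-identical partial copy of NOTCH2, had 234 and 273 counts in shNC and 220 and 201 in shELOVL5. With its counts added to those of NOTCH2 the log2 fold change was 0.15 and did not pass (adjusted p = 0.0917). No source used here states how the counting step shared reads between the copies.

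On a per-length scale the receptors kept their order in every library, while in CPM NOTCH2 (166) lay above NOTCH1 (155) in shELOVL5 replicate 1. In RPKM (CPM per kilobase of annotated exon), NOTCH1 was at 17.7 ± 0.461 in shNC and 15.4 ± 0.718 in shELOVL5, NOTCH2 at 8.24 ± 0.181 and 9.44 ± 0.619, and NOTCH3 at 3.83 ± 0.163 and 2.69 ± 0.111 (SD, n = 2). Of the summed RPKM of these 3 genes, NOTCH2 made up 27.7% and 27.6% in shNC and 36.1% and 32.5% in shELOVL5. The share of NOTCH3 was 12.7% and 13% in shNC and 9.53% and 9.99% in shELOVL5, and that of NOTCH1 59.5% and 59.5% against 54.4% and 57.5%. None of these shares overlapped between the groups, though an exact permutation test of 2 against 2 libraries cannot go under p = 0.333. NOTCH4, the remaining receptor gene, had at most 4 counts in any library and was not tested.

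RBPJ (ENSG00000168214; chromosome 4, 26163455 to 26435131, plus strand), the DNA-binding partner of every NOTCH receptor, was at 125 and 119 CPM in shNC and at 103 and 96.4 CPM in shELOVL5. The groups did not overlap, and the log2 fold change was -0.29 (SE 0.0617, adjusted p = 0.00740), so the level fell by 18.4%. It did not pass without shELOVL5 replicate 2 (-0.25, adjusted p = 0.0812). The 4 RBPJ pseudogenes found by name had 0 counts in every library. The pancreas-type paralogue RBPJL had 3 to 8 counts.

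FBXW7 (ENSG00000109670; chromosome 4, 152320544 to 152536063, minus strand), which encodes the substrate-binding part of the ubiquitin ligase that degrades NOTCH, MYC and cyclin E, was at 51.9 and 53.7 CPM in shNC and at 39.1 and 37.9 CPM in shELOVL5. Its log2 fold change was -0.46 (SE 0.0884, adjusted p = 0.00472), so the level fell by 27.1%, with no overlap. The call was kept in all 12 alternative analyses, with log2 fold changes of -0.49 to -0.42. The antisense gene FBXW7-AS1 had 0 counts in every library.

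HES4 (ENSG00000188290; chromosome 1, 998962 to 1000172, minus strand), whose promoter is printed above, was at 28.0 and 32.2 CPM in shNC and at 52.8 and 54.7 CPM in shELOVL5. The knockdown libraries differed by under 2 CPM and lay far above the controls. The log2 fold change was 0.84 (SE 0.102, adjusted p = 2.66e-04), and the 95% interval ran from 1.53-fold to 2.09-fold. The call was kept in all 12 alternatives, with values of 0.73 to 0.94.

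DTX1 (ENSG00000135144; chromosome 12, 113056709 to 113098028, plus strand), a NOTCH-induced ubiquitin ligase gene, rose with it. It was at 34.9 and 41.1 CPM in shNC and at 53.7 and 56.0 CPM in shELOVL5, without overlap. The log2 fold change was 0.53 (SE 0.102, adjusted p = 0.00445; 1.24-fold to 1.69-fold), and all 12 alternatives kept the call with values of 0.41 to 0.65.

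HES1 (ENSG00000114315; chromosome 3, 194136145 to 194138732, plus strand), the repressor that marks NOTCH activity in many tissues, was scarce, with 29 and 18 counts in shNC and 44 and 20 in shELOVL5. This corresponded to 1.71 and 1.12 CPM against 2.52 and 1.21 CPM, and the groups overlapped. The difference, 0.40 on the log2 scale, missed the threshold (adjusted p = 0.637), the 95% interval ran from 0.621-fold to 2.79-fold, and without shELOVL5 replicate 1 the value was -0.23. A change of the size seen for HES4 lies within that interval, so HES1 was not shown to differ from HES4 in its response. The genes did differ in level: per exon length HES4 was 30.2 and 53.0 times as abundant as HES1 in the shNC libraries and 38.6 and 83.4 times in the shELOVL5 libraries.

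PTCRA (ENSG00000171611; chromosome 6, 42915989 to 42925835, plus strand) encodes the alpha chain of the pre-T-cell receptor, a mark of early thymocytes. It had 21 and 16 counts in shNC and 50 and 32 in shELOVL5, or 1.24 and 0.997 CPM against 2.86 and 1.94 CPM. Both knockdown libraries were higher, yet the log2 fold change of 1.10 (SE 0.430) did not pass over all genes (adjusted p = 0.102), nor under any alternative that gave an adjusted p (0.0911 to 0.469; DESeq2 gave none). The interval of 1.11-fold to 4.14-fold is not adjusted for the number of genes.

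NRARP (ENSG00000198435; chromosome 9, 137300482 to 137302251, minus strand), a small ankyrin-repeat protein that is induced by NOTCH and dampens its complex, was the rarest of the 10, with 11 and 24 counts in shNC and 11 and 8 in shELOVL5. The levels were 0.648 and 1.5 CPM against 0.629 and 0.484 CPM, so 1 control library was nearly level with a knockdown library. The difference, -0.93 on the log2 scale (SE 0.653), missed the threshold (adjusted p = 0.369), and the interval ran from 0.193-fold to 1.43-fold. Without shNC replicate 2 the value was -0.22. A change of this gene was not detected in these libraries.

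**Figure D2:**
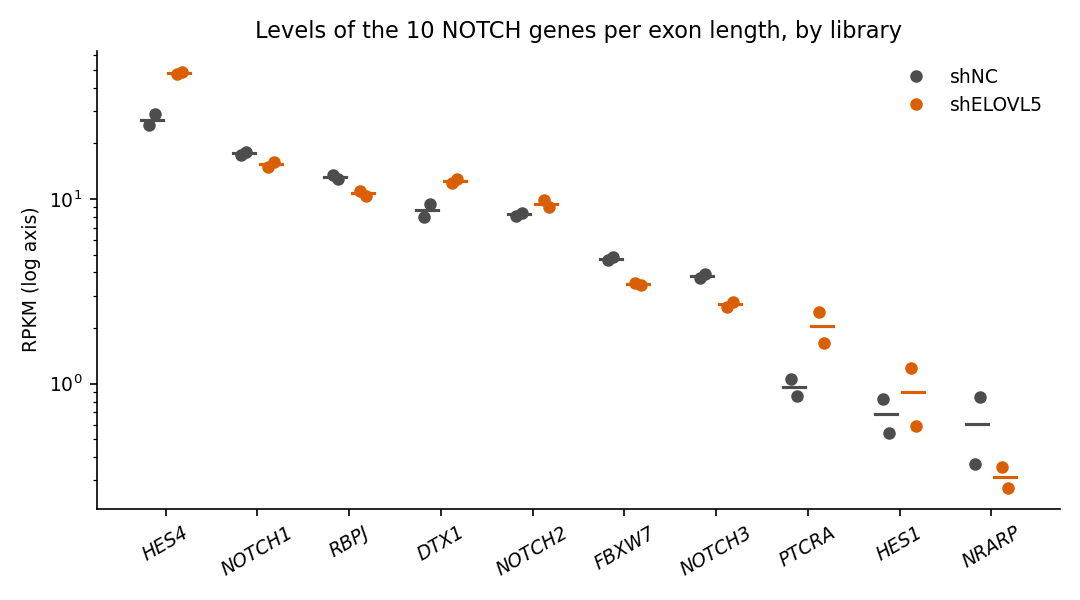
RPKM of each gene in each of the 4 libraries (points, log axis) with the group mean (bar), ordered by the shNC mean. HES4 is the most abundant per exon length in both groups (26.9 and 48.1 RPKM) and HES1, PTCRA and NRARP are the least abundant, with all their library values under 3 RPKM.

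Ordered by mean RPKM in shNC, HES4 (26.9) was followed by NOTCH1 (17.7), RBPJ (13.2), DTX1 (8.67), NOTCH2 (8.24), FBXW7 (4.76), NOTCH3 (3.83), PTCRA (0.956), HES1 (0.686) and NRARP (0.605). DTX1 and NOTCH2 did not differ beyond the spread of their libraries there. HES1 and NRARP overlapped as well, while the lower PTCRA library (0.854) lay just above the higher HES1 library (0.828). In shELOVL5 DTX1 (12.5) stood above RBPJ (10.8), with no overlap between their libraries. This order depends on the exon union used as length, 4387 bases for DTX1 and 9253 for RBPJ. In CPM, RBPJ (99.5) stood above DTX1 (54.9) in shELOVL5.

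**Figure D3:**
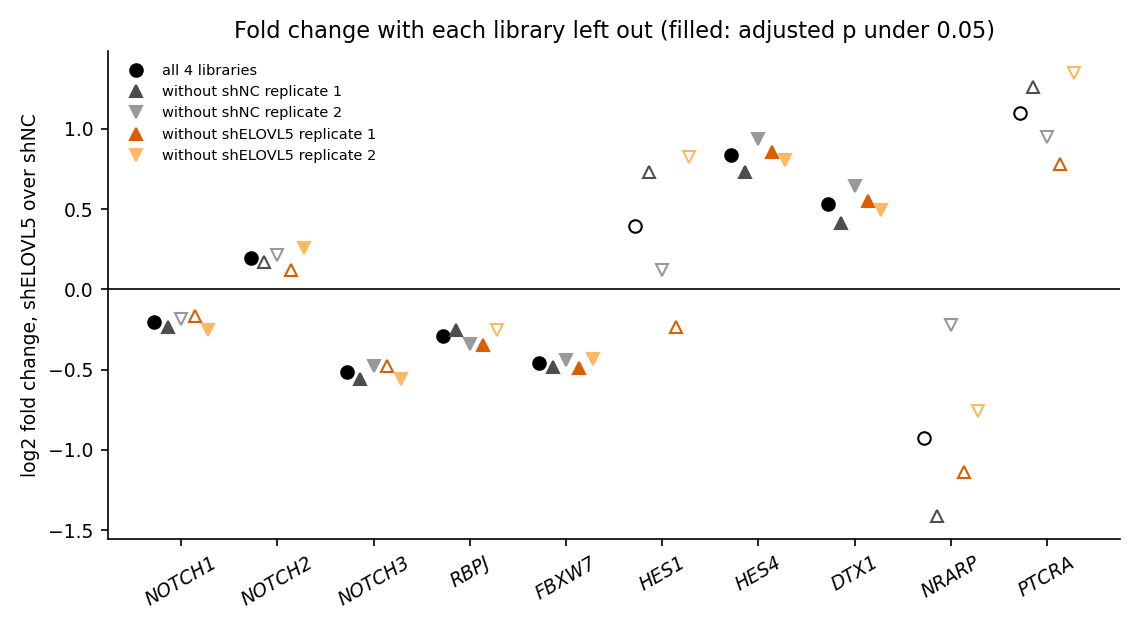
Log2 fold change (y axis) of each gene with all 4 libraries (circle) and with each library left out in turn (triangles); filled symbols have an adjusted p under 0.05. HES4, DTX1 and FBXW7 stay filled throughout, NOTCH2 is filled with all libraries and without shELOVL5 replicate 2 only, and HES1 changes sign without shELOVL5 replicate 1.

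The other genes of the pathway were taken from lists by role. Of 61 such genes 55 were tested, with 8 higher and 10 lower (32.7% called) and a median log2 fold change of -0.11. That share stood next to 20.4% of all tested genes and 32.6% of those above 20 CPM, and the counts by role below are to be read against 9.22% higher and 11.2% lower over all tested genes. Named below are genes that passed and, where a list gave none, the gene with the smallest p; PSEN2, MAML1, IL7R and HES5 were added after their values were seen.

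Among ligands, 1 of 4 tested genes rose. JAG1, a ligand of the Jagged type, was at 7.71 and 7.04 CPM in shNC and at 15.5 and 14.3 CPM in shELOVL5 (log2 fold change 1.01, SE 0.187, adjusted p = 0.00362). The other 3 tested ligand genes did not pass, and the list's median was -0.26.

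Receptor glycosylation genes gave no call among 5, with a median of -0.09 by edgeR's quasi-likelihood test. RFNG, a Fringe-type sugar transferase gene that tunes ligand choice, had the smallest p, with a log2 fold change of -0.25 (unadjusted p = 0.0388, adjusted p = 0.130). It was the only gene of the list at an unadjusted p under 0.05.

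Of 8 tested genes that cut the receptor, 2 rose and 1 fell, with a median of -0.09. ADAM10, the protease of the first ligand-induced cut, was at 220 and 221 CPM in shNC and at 144 and 146 CPM in shELOVL5 (log2 fold change -0.61, SE 0.0462, adjusted p = 1.15e-05). FURIN, which processes the newly made receptor, rose from 52.2 and 56.4 to 87.0 and 89.6 CPM (log2 fold change 0.70). NCSTN, which encodes the gamma-secretase subunit nicastrin, rose by 0.33 on the log2 scale, and by 0.26 to 0.38 in the 12 alternatives. Its call was kept in 10 of them and lost when either shELOVL5 library was left out. PSEN2, a presenilin gene, was listed at 0 counts in every library.

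In the nuclear activation complex RBPJ was the only gene of 8 to pass, and the list's median was -0.17. For MAML1, a Mastermind coactivator gene, the value was -0.05 (adjusted p = 0.674). Corepressor genes split evenly, with 3 of 10 higher, 3 lower and a median of -0.10. The Groucho-type genes TLE3 (136 and 136 to 86.6 and 94.5 CPM, log2 fold change -0.59) and TLE1 (-0.47) fell with CTBP1 (-0.37), and these 3 calls were kept in all 12 alternatives. CIR1, which encodes an RBPJ-binding corepressor, rose by 0.51 and the deacetylase gene HDAC1 by 0.18 on the log2 scale. These calls were kept in 9 and 11 of 12 alternatives, with adjusted p up to 0.125 and 0.101. Without shELOVL5 replicate 1 or 2, 1 corepressor gene rose.

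Of 13 tested turnover and trafficking genes 6 were lower and 1 higher, with a median of -0.20, next to 11.2% lower and 9.22% higher among all tested genes. CCNC, the cyclin of the kinase that phosphorylates the NOTCH intracellular domain before FBXW7 binds, was at 118 and 114 CPM in shNC and at 68.8 and 72.3 CPM in shELOVL5 (log2 fold change -0.72, SE 0.0636, adjusted p = 3.14e-05). Its kinase partner CDK8 (-0.30), the ligase adaptor SKP1 (-0.20), the ubiquitin ligase gene ITCH (-0.30) and the NOTCH antagonist NUMB (-0.36) were lower with FBXW7. MIB2, a ligase that acts on ligands, was higher (0.32). The calls of CDK8, SKP1 and MIB2 were kept in 5, 4 and 7 of 12 alternatives, that of ITCH in 9 (adjusted p up to 0.123) and that of NUMB in 11 (up to 0.0542). Without shELOVL5 replicate 1, 2 genes of this list passed as lower, and without shNC replicate 1, 3 did. MIB2 did not pass without shNC replicate 1 or without either shELOVL5 library.

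In the direct target list, members included, 3 of 15 tested genes were higher and 2 lower, with a median of 0.08. MYC, a growth-driving transcription factor gene with a NOTCH-dependent enhancer, was at 171 and 183 CPM in shNC and at 102 and 108 CPM in shELOVL5 (log2 fold change -0.75, SE 0.0585, adjusted p = 1.34e-05). HEY2, a hairy-type repressor gene, was at 2.06 and 2.31 against 5.72 and 3.75 CPM (log2 fold change 1.12, adjusted p = 0.0360) and kept its call in 4 of 12 alternatives. IL7R, the interleukin-7 receptor gene, missed the threshold (-0.58, adjusted p = 0.105), and HES5 had 0 counts in every library. The targets thus moved in both directions: HES4 and DTX1 were higher while NOTCH3 and MYC were lower.

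**Figure D4:**
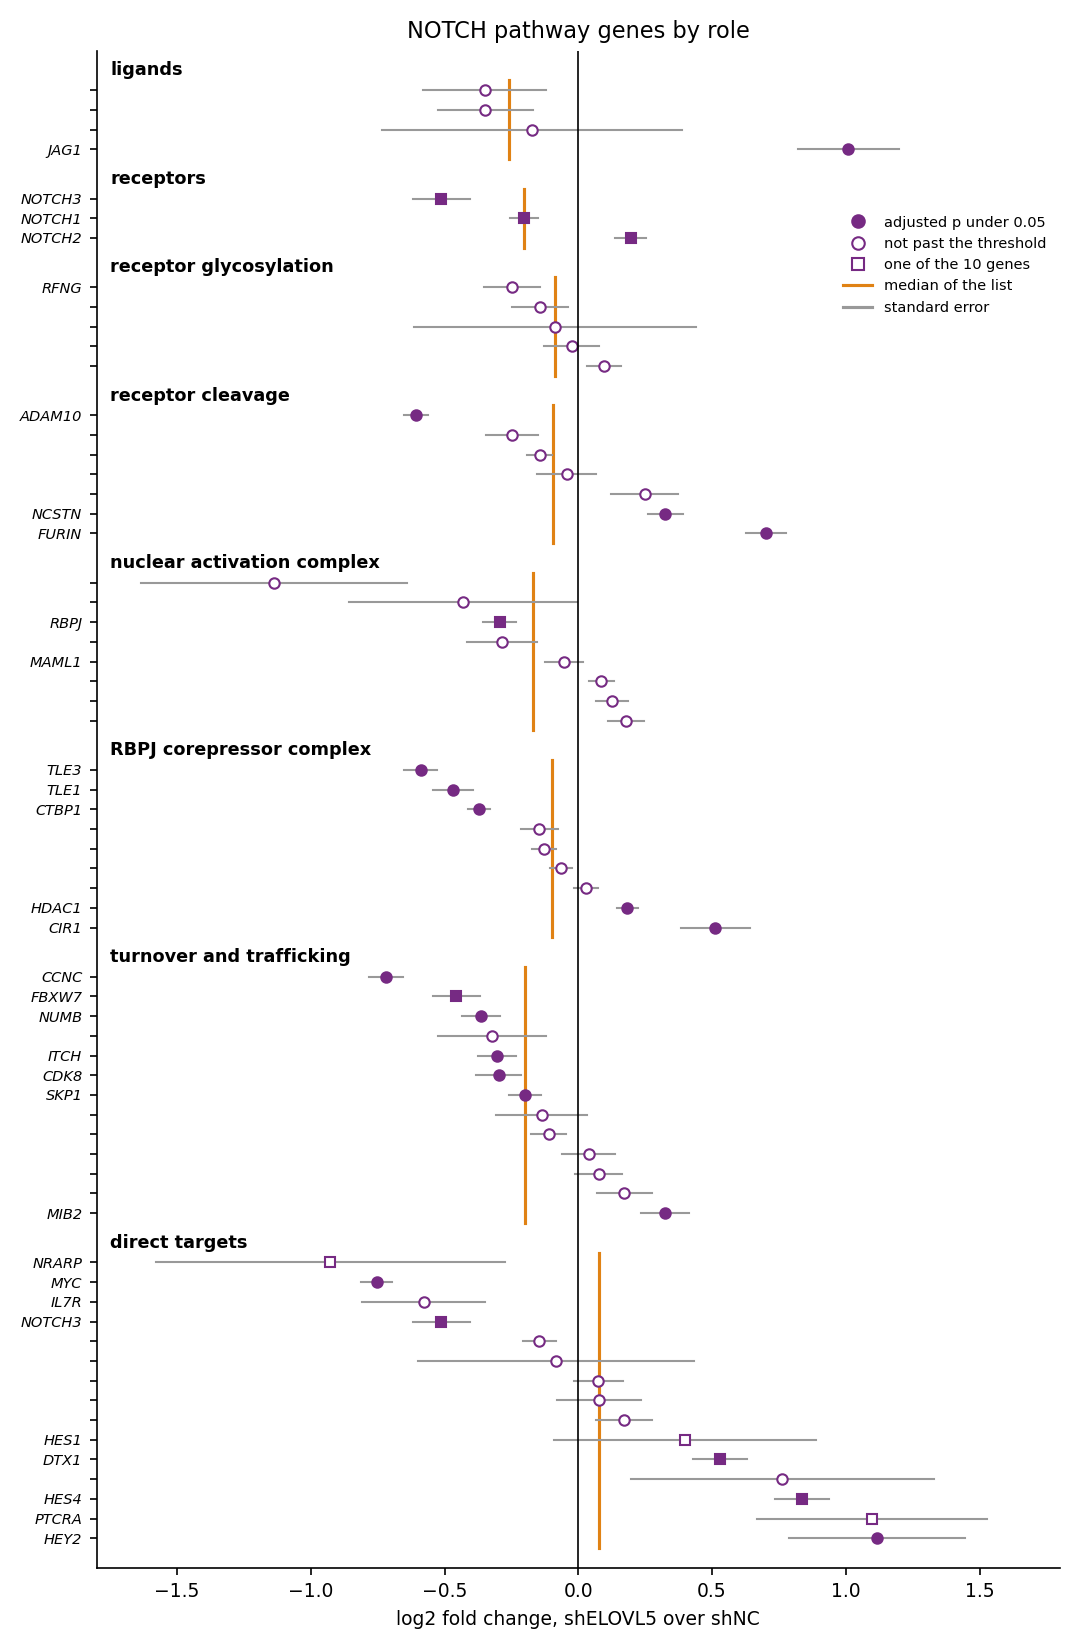
Log2 fold change, shELOVL5 over shNC (x axis), of tested NOTCH pathway genes, 1 gene per line and grouped by role, with the standard error; genes that the text does not name carry no label, squares are among the 10 genes and orange lines are medians of the whole lists. JAG1 (1.01) stands alone among ligands, CCNC (-0.72) and FBXW7 (-0.46) are the lowest of the turnover genes, and the direct targets run from NRARP (-0.93) to HEY2 (1.12).

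The nearest tested genes on each side of the 10 members were read from GENCODE release 29. Of these 20 neighbours 2 were higher, 3 lower and 15 not past the threshold, next to 9.22% higher and 11.2% lower among all tested genes. ISG15, an interferon-induced gene 966 bases from HES4, had a log2 fold change of 0.38 (adjusted p = 0.0288), kept in 6 of 12 alternatives. On the other side of HES4, at 911 bases, ENSG00000272512 had a log2 fold change of 0.94 (SE 0.437). It did not pass (adjusted p = 0.163). PHGDH (-1.35) and SEC22B (-0.22), which flank NOTCH2, lay 167327 and 81272 bases from it, and OPA1 (0.28) lay 438322 bases from HES1. The call of PHGDH was kept in all 12 alternatives, that of SEC22B in 8 (adjusted p up to 0.109) and that of OPA1 in 7 (up to 0.314). Neither neighbour of DTX1 passed, RASAL1 at 791 bases (-0.11) and OAS2 (0.01).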

How the data were processed

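RNA was sequenced from 4 J.gamma1 samples, 2 per group, grouped by their titles. The authors deposited raw counts per Ensembl gene. HISAT2 2.2.0, StringTie and hg38 are named, with no role or order, per the submitters' processing notes; no source used here gives the annotation release, the counting step or its strand setting. Count columns were matched to samples by title.

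Genes were kept by the filterByExpr function of edgeR 4.0.16 (R 4.3.3) at a minimum count of 10. Counts were scaled by TMM and tested two-sided with edgeR's quasi-likelihood functions glmQLFit (robust=TRUE) and glmQLFTest, with Benjamini-Hochberg adjustment over all 17461 tested genes and a threshold of 0.05. All adjusted p-values in the text come from this test unless another is named. Standard errors were derived from the same fit, as the absolute log2 fold change over the square root of the test's F statistic. The 95% intervals use these errors and the fit's total degrees of freedom. CPM are TMM-scaled, and RPKM divide them by the exon union of GENCODE release 29 (GRCh38). The procedure was also run on simulated counts with the same variability set for every gene, so that run gives no error rate for these data. Promoter windows are those of RefSeq on GRCh38.p14, which matched 9 of the 10 genes.

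The members, role lists and marker lists were chosen with earlier results of these data known. Named genes were all members, ELOVL5, role list genes that passed, the gene of smallest p in a list without a call, and copies or antisense genes of members; others, called neighbours included, were picked after their values were seen. The replicates of a group differed by more than sampling noise (chi-square per degree of freedom 4.37 and 4.08). Alternatives were RLE scaling, total counts, other filters, DESeq2 1.42.0, limma-voom (limma 3.58.1), robust=FALSE, a replicate block, and each library left out; those for called neighbours were added after seeing the data. A planned comparison of protein sequences was not run. A few genes counted in the lists are not reported here by name.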

Additional observations from a re-analysis of the deposited data

How the results depend on the processing

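Of 121 values for the 10 genes under the alternatives, 107 kept their direction and side of the threshold, 13 lost the call and 1 changed sign: HES1 without shELOVL5 replicate 1 (adjusted p = 0.866), whose log2 fold change ran from -0.23 to 0.83 as each library was left out. The 107 include 11 values of HES1, 11 of NRARP and 12 of PTCRA, genes that had no call to lose. For these genes DESeq2 gave no adjusted p, and its values were counted as not past the threshold. NRARP had no value under the filter of 1 CPM in 2 libraries. Without a low-count filter 899 genes were higher instead of 1610, 5 other pathway genes were higher instead of 8, receptors numbered 0 higher and 1 lower, and turnover genes 0 higher and 3 lower. No receptor was higher by DESeq2, by limma-voom or with robust=FALSE (0 each), and with robust=FALSE 0 turnover genes were higher.

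Leaving out 1 library at a time gave 696 to 1347 genes higher and 1176 to 1616 lower, and 2 to 4 members lower. It gave 3 to 7 other pathway genes higher and 6 to 9 lower, receptors 0 to 1 higher and 0 to 2 lower, and turnover genes 0 to 1 higher and 2 to 5 lower. Nuclear activation genes numbered 0 to 1 higher and 0 to 1 lower, glycosylation genes 0 to 1 lower, cleavage genes 1 to 2 higher, corepressor genes 1 to 2 higher and direct targets 1 to 2 lower. The group left with 1 library is then assumed to vary like the other group. Fewer libraries entered these fits; the cause of the other changes was not tested.

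Samples with the same replicate number did not deviate together (correlation -0.0061 across 12247 genes). With 2 samples per group this cannot tell whether the numbers mark a shared culture or day. With a replicate block all 10 members kept their direction and side of the threshold (NOTCH2 adjusted p = 0.0459) and 1 nuclear activation gene was higher. A floor of 3 counts was worth 0.172 to 0.187 CPM and covers counting error only; HES1, NRARP and PTCRA lay above it in every library, with 8 to 50 counts.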
